A study of Mus musculus with 89 samples.

Results

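Microvilli are actin-filled protrusions that cover the apical face of intestinal epithelial cells and together form the brush border, where digestion and uptake take place. The measurements below cover 10 genes whose products build a microvillus, listed for their role and found by symbol in both deposited count tables. The table of multicellular clumps held 27538 genes and the table of single cells held 23379, of which 21817 were in both.

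In the core of each microvillus, parallel actin filaments are tied together by bundling proteins. Vil1 (villin, chr1:74409376-74435559, plus strand) bundles and severs actin, Espn (espin, chr4:152120331-152152371, minus strand) is a further bundler, and Eps8 (chr6:137477245-137654876, minus strand) caps and bundles filaments and sits at microvillus tips. Ezr (ezrin, chr17:6738041-6782784, minus strand) links the actin core to the plasma membrane. Slc9a3r1 (the PDZ scaffold EBP50, chr11:115163341-115181181, plus strand) binds ezrin, and Pdzk1 (chr3:96829284-96870926, plus strand) is a related PDZ scaffold that holds transporters in the apical membrane. The motors are Myo1a (chr10:127705170-127720940, plus strand), which tethers the membrane along the core, and Myo7b (chr18:31959234-32036961, minus strand), which carries cargo to the distal end. Cdhr2 (chr13:54701461-54736662, plus strand) and Cdhr5 (chr7:141269083-141276786, minus strand) are protocadherins that join the ends of neighbouring microvilli. Positions are on mouse build GRCm38. In the jejunum these proteins are best known from absorptive enterocytes, which assemble a brush border as they leave the crypt and move up the villus, while tuft cells carry a long apical bundle of microvilli of their own.

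Jejunal epithelium of male C57BL/6 mice on regular chow was studied with no genetic change or drug in any group, and all plates were labelled 3 months except 3 single-cell plates of mouse 2, labelled 4 months, so that its number may stand for more than 1 animal. Clumps of adhering cells were sorted by DNA content as pairs (4n) from mice 1 to 5 and as larger clumps (above 4n) from mice 1, 4 and 5, and single cells came from mice numbered 1 to 4. Each clump or cell went to 1 well, and the 3′ ends of its polyadenylated RNA were counted as unique molecular identifiers (UMIs). Each well was placed in a crypt, mid-villus or villus tip zone by 69 enterocyte landmark genes of the study, with Pdzk1 taken out of that list so that no member placed a well. Zones are thus inferred from the same wells, and the landmarks were left out of every test between zones.

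The clump table held 38454111 UMIs in 17162 wells of 45 plates and that of single cells 39137313 UMIs in 16850 wells of 44 plates, and no well was in both. After filtering, 5883 clumps had a zone, made up of 3534 crypt, 1517 mid-villus and 832 villus tip clumps. Mouse 4 gave 2098 of the crypt clumps and 28 of the villus tip clumps. Of 5199 single cells kept, 2450 were enterocyte-like, 187 tuft-like, 205 goblet-like, 249 enteroendocrine-like, 1782 immune-like and 146 plasma-cell-like, and 180 led by Cd74 and H2-Aa stayed unnamed. Clusters were made without the 10 genes, and 9 or more listed markers led the clusters of tuft-, goblet- and enteroendocrine-like cells. The immune-like sum of mouse 1 had 1833 CPM (UMIs of a gene or list scaled to a fixed total) of immune markers against 40672 to 45317 in mice 2 to 4, so it stood apart. All levels below are CPM of the UMIs summed over the wells of 1 mouse in 1 zone or cell type, and the mouse is the replicate. A clump holds several cells, so fewer cells of a type and less RNA per cell cannot be told apart in it.

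Promoters of 3 members with high counts on the villus are shown as DNA context for the levels that follow. RefSeq entries on GRCm38.p6 covered 8 of the 10 genes with 11 windows, and Eps8 and Myo7b were named only. The 250 bases before the transcript start were searched on both strands for the CArG box of serum response factor, GTTAATNAT for HNF1, TTTATG for CDX, CAAAGNNCA for HNF4 and AGATAA for GATA factors. These 3 are printed 5′ to 3′ on the gene's strand because each holds 1 match close to the start, which is in capitals: Vil1 (chr1:74409134-74409383), Cdhr2 (chr13:54701213-54701462) and Cdhr5 (chr7:141276787-141277036).
Vil1: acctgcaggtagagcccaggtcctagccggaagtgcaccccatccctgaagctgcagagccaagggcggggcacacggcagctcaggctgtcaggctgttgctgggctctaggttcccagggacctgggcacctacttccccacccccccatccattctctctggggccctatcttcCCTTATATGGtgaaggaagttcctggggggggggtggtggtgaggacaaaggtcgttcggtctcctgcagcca
Cdhr2: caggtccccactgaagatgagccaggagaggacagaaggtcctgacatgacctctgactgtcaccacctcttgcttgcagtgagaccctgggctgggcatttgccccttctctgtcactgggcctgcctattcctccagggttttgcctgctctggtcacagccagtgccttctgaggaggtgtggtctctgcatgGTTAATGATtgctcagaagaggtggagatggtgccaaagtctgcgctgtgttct
Cdhr5: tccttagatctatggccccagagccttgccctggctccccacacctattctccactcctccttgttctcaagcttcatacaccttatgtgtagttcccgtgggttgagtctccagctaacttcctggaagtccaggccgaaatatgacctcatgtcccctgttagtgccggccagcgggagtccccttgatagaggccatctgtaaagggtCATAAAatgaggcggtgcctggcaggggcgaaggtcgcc
The CArG box of Vil1 lay at -73 to -64, the HNF1 letters of Cdhr2 at -54 to -46 and the CDX letters of Cdhr5, read on the other strand, at -39 to -34. Of all 32851 promoter windows, 1.47% held the CArG box, 0.737% the HNF1 letters and 10.8% the CDX letters. A second CDX match lay at -196 to -191 in 1 of the 3 windows of Espn, and none of the 11 windows held the HNF4 or GATA letters, which 5.49% and 9.99% of all windows held. These matches describe the letters only.

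Mid-villus clumps were compared with crypt clumps to ask how far the microvillus genes go up once enterocytes reach the villus. All 10 genes were higher in the mid-villus, by 1.06 to 3.65 on the log2 scale and with a median of 1.87, in edgeR's quasi-likelihood test over 7173 genes with Benjamini-Hochberg adjustment. Over all genes tested, 15.9% were higher and 24.0% lower, with a median of -0.07. TMM scaling, used throughout unless stated, gave 39.9% of all calls as higher and the size factors of DESeq2 gave 27.8%, and all 10 genes were called under both and under library totals. Pdzk1 went up most and Myo1a least. For 7 of the 10 genes the lowest mid-villus mouse lay above the highest crypt mouse, which was so for 6.8% of all genes.

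Among the bundlers, Vil1 was counted at 925, 1065, 1044, 397 and 656 CPM in the crypt clumps of mice 1 to 5. In the mid-villus it stood at 2844, 2164, 2567, 1837 and 2024 CPM. The groups did not overlap, and mouse 4 was lowest in both. Vil1 was 1.58 ± 0.31 higher (log2, SE, n = 5 and 5, edgeR adjusted p = 0.000404). Espn went from 121, 47.8, 92.0, 12.8 and 111 CPM in the crypt to 734, 368, 538, 239 and 462 CPM in the mid-villus, again with no overlap, a change of 2.68 ± 0.50 (edgeR adjusted p = 0.000211). Eps8, the tip-located capping protein, moved less, from 29.1 to 137 CPM in the crypt to 98.3 to 225 CPM in the mid-villus, and its groups overlapped. Its change of 1.08 ± 0.35 had an edgeR adjusted p of 0.0194, which became 0.0502 without mouse 1 and 0.085 without mouse 3.

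The membrane linker Ezr and its scaffolds formed the group with the widest range. In crypt clumps Pdzk1 was sparse, at 39.97, 42.1, 59.4, 5.57 and 24.3 CPM, from 9 to 188 UMIs a mouse. In mid-villus clumps it reached 506, 401, 548, 346 and 216 CPM. Every mid-villus mouse was above every crypt mouse, and the change was 3.65 ± 0.46 (edgeR adjusted p = 4.98e-06). Slc9a3r1 had a mean of 298 ± 105 CPM (SD, n = 5) in the crypt and 1172 ± 128 in the mid-villus, where its 5 mice lay between 989.9 and 1352. That difference was 2.08 ± 0.33 on the log2 scale (edgeR adjusted p = 4.78e-05). Ezr was 1.85 ± 0.36 higher (edgeR adjusted p = 0.000375) and was higher in 5 of 5 mice, though mouse 5, at 333 CPM in the mid-villus, lay within the crypt range of 138 to 382. The clump sums of mouse 5 stood apart in mitochondrial share, at 18.6, 21.4 and 21.1% in crypt, mid-villus and tip against 4.72 to 9.998% in mice 1 to 4, and its part in the levels was not tested. Without mouse 5, all 10 genes were called in the mid-villus and at the tip against the crypt, and 1 between tip and mid-villus.

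Both motors were higher as well. Myo1a stood at 419.7, 457, 477, 226 and 202 CPM in the crypt and at 856, 732, 856, 686 and 386 CPM in the mid-villus, so that mouse 5 fell within the crypt range. It was higher in 5 of 5 mice, by 1.06 ± 0.30 (edgeR adjusted p = 0.00798). Myo7b had 83.4 to 209.6 CPM in the crypt and 257 to 391 CPM in the mid-villus with no overlap, a change of 1.29 ± 0.29 (edgeR adjusted p = 0.00138).

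Both protocadherins went up without overlap. Cdhr2 was at 132, 114, 185, 80.7 and 140.4 CPM in the crypt and at 678, 583, 882, 557 and 561 CPM in the mid-villus, a change of 2.39 ± 0.32 (edgeR adjusted p = 7.68e-06). Cdhr5 was at 251, 261, 366, 134 and 424 CPM and then at 946, 937, 1116, 852 and 1205 CPM, a change of 1.89 ± 0.36 (edgeR adjusted p = 0.000261). The lowest Cdhr5 level in the mid-villus, in mouse 4, was above the highest crypt level, in mouse 5. The 3 partners that tie these protocadherins to the motor were higher as well: the scaffold Ush1c (harmonin) by 0.70 ± 0.25, Anks4b by 1.08 ± 0.42 and Calml4 by 0.84 ± 0.28, with edgeR adjusted p of 0.0306, 0.0469 and 0.0194.

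**Figure D1:**
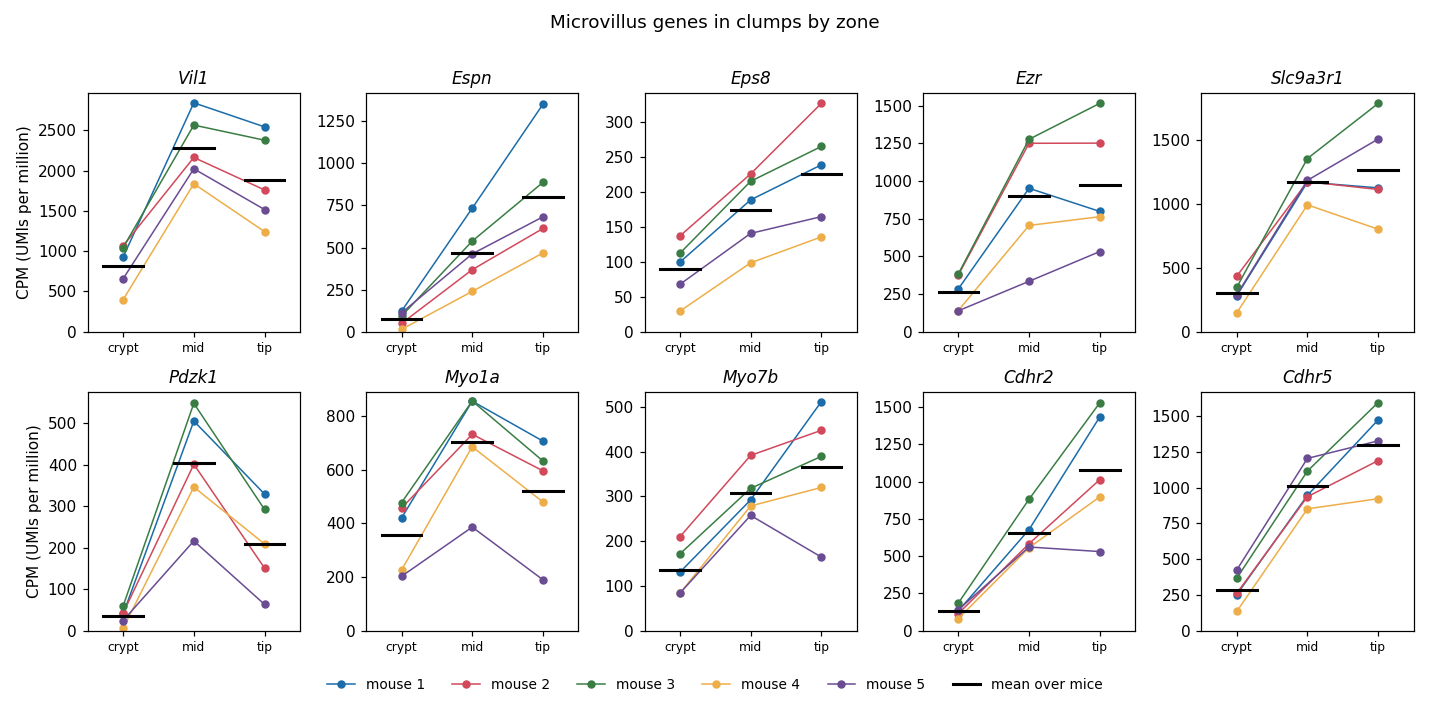
CPM of the 10 microvillus genes (vertical axes, each from 0) in crypt, mid-villus and villus tip clumps; each line joins the zones of 1 of 5 mice and each black bar is their mean. All 10 genes are higher in the mid-villus than in the crypt in 5 of 5 mice, while between mid-villus and tip the lines of Espn, Eps8 and Cdhr5 go up in 5 of 5 mice and those of Vil1, Pdzk1 and Myo1a go down in 5 of 5.

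With mouse as a block all 10 genes stayed called, and among pairs (4n) alone 5 were called, namely Espn, Slc9a3r1, Pdzk1, Cdhr2 and Cdhr5. Shares of all genes called in these fits are not given. Fewer calls among pairs in general and a result about these genes thus cannot be told apart. Crypt clumps were deeper, with a median of 1261 to 6279 UMIs per mouse against 1128.5 to 2627 in the mid-villus, and held 13.7 to 14637 CPM of Paneth cell markers against 8.67 to 1238. In clumps with under 10 UMIs of each secretory marker list all 10 genes were called. A cut at a UMI count depends on depth, and it left out 47.4% of the crypt clumps of mouse 4 against 7.34 to 22.4% in the other mice. It thus does not separate Paneth cell content from depth, and the part of each was not tested.

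Villus tip clumps were compared with crypt clumps over the whole length of the axis. All 10 genes were higher at the tip, with a median of 2.39 on the log2 scale, where 23.5% of all genes tested were higher and 29.9% lower in edgeR's test. The order of the changes was another one than for the mid-villus. Espn led at 3.73 ± 0.52 (edgeR adjusted p = 6.19e-06), followed by Cdhr2 at 3.39 ± 0.33 (1.58e-07), Pdzk1 at 3.01 ± 0.45 (1.54e-05), Cdhr5 at 2.51 ± 0.37 (1.08e-05) and Slc9a3r1 at 2.48 ± 0.34 (5.06e-06). Ezr was higher by 2.30 ± 0.37, Myo7b by 1.85 ± 0.30, Eps8 by 1.81 ± 0.36, Vil1 by 1.59 ± 0.31 and Myo1a by 0.94 ± 0.30, with edgeR adjusted p of 3.26e-05, 3.57e-05, 0.000325, 0.000278 and 0.0127. No difference between genes was tested.

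Every tip mouse was above every crypt mouse for 7 of the 10 genes, against 7.32% of all genes. The exceptions were Eps8, Myo1a and Myo7b. At the tip Myo1a stood at 707, 596, 632, 479.7 and 189.6 CPM, and in mouse 5 this was below the 202 CPM of its crypt clumps. Under the size factors of DESeq2, library totals alone and no filter on low counts Myo1a was not called, with a smallest change of 0.56 and an edgeR adjusted p of 0.221 under library totals, and its sign held under each scaling. Calls of all genes were 44% higher under TMM, 32.7% under the size factors and 29.5% under library totals. Among pairs alone 8 genes were called, without Vil1 (1.15, adjusted p = 0.1) and Myo1a (0.71, adjusted p = 0.36). The share of all genes called among pairs is not given beside this count.

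Between the mid-villus and the tip the 10 genes parted. Cdhr2 was the only member called, higher by 1.00 ± 0.30 (edgeR adjusted p = 0.0353), while 6.83% of all genes were higher and 5.27% lower. Its tip clumps held 1435, 1014, 1529.6, 898 and 531 CPM. In mice 1 to 4 this was above the same mouse's mid-villus, and in mouse 5 it was below. Without mouse 1, 2 or 3 the adjusted p of Cdhr2 was 0.194, 0.135 and 0.124, and under library totals alone it was 0.154.

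Zones of 1 mouse moved together, and with mouse as a block in the same test 6 genes were called, 5 of them higher and 1 lower at the tip, where 14.1% of all genes were higher and 13.1% lower with the block. Espn was 1.06 ± 0.22 higher (edgeR adjusted p = 0.000269) with the block. Its tip levels of 1353, 613, 888, 467 and 683 CPM exceeded the same mouse's mid-villus in 5 of 5 mice, although the groups overlapped and the unblocked change of 1.05 ± 0.47 had an adjusted p of 0.149. Eps8 (0.69 ± 0.20, adjusted p = 0.00893), Cdhr5 (0.65 ± 0.20, 0.0105) and Myo7b (0.56 ± 0.20, 0.0369) were the others called higher with the block, and Cdhr2 remained called.

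Pdzk1 had the reverse pattern. It stood at 329, 151, 292, 209 and 63.2 CPM at the tip, below the mid-villus of the same mouse in 5 of 5 mice. Its change was -0.64 ± 0.42 (edgeR adjusted p = 0.342), and -0.75 ± 0.27 with the block (adjusted p = 0.0304). The tip value of mouse 5 came from 5 UMIs. Myo1a and Vil1 also had lower CPM at the tip in 5 of 5 mice, but neither was called: Myo1a had -0.12 ± 0.30 (edgeR adjusted p = 0.853), and Vil1 had 0.01 ± 0.31 (0.991), a value whose sign turned under both other scalings. Ezr (0.45 ± 0.36) and Slc9a3r1 (0.40 ± 0.32) were not called either way. Library totals moved the median of all genes by -0.32 in this comparison and by -0.37 between tip and crypt, so calls are relative to the bulk of genes, and the share of all calls that were higher was 56.5% here under TMM, 45.6% under the size factors of DESeq2 and 25.8% under library totals.

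The share of each gene among the UMIs of all 10 does not depend on the scaling. Vil1 took 32.6 ± 1.57% of them in crypt clumps (SD, n = 5), 28.3 ± 2.08% in the mid-villus and 21.8 ± 1.70% at the tip, and the ranges of crypt and tip did not overlap. Espn went the other way, from 3.02 ± 1.82% to 5.70 ± 1.76% and 9.14 ± 2.40%. The share of Myo1a went from 14.5 ± 3.12% to 8.64 ± 1.76% and 5.98 ± 1.91%. Cdhr2 took 5.46 ± 1.22%, 8.07 ± 0.82% and 12.3 ± 2.59%, and Pdzk1 had its highest share, 4.91 ± 1.00%, in the mid-villus. Summed, the 10 genes had 1253 to 3234 CPM in crypt clumps, 6588 to 9669 in the mid-villus and 6237 to 11270 at the tip.

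Over the 15 sums of mouse and zone, each gene's log2 CPM correlated with the mean of the other members at a Pearson r of 0.704 (Myo1a) to 0.957 (Vil1), and the pairs ranged from 0.455 for Myo1a with Cdhr5 to 0.962 for Espn with Cdhr5. These points share mice and depth and are given as a description. Among 7163 other genes, those whose pattern was most like the mean of the members included Gsdmd (r = 0.986), Ggt1 (0.984), Asah2 (0.983) and Crip1 (0.982). Of these, Ggt1, a gamma-glutamyltransferase of the cell surface, had a mean of 79.1 ± 38.6 CPM in crypt, 523 ± 131 in mid-villus and 579.7 ± 279.9 in tip clumps (SD, n = 5).

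A wider list of 41 further genes of microvillus assembly, linkage and the terminal web had 29 tested in clumps. Between mid-villus and crypt 15 were higher, 2 lower and 12 not called, where 15.9% of all genes were higher and 24.0% lower. The 3 called with the largest rise were Tmigd1, an adhesion protein of the brush border (3.58 ± 0.76), the ezrin kinase Stk10 (3.48 ± 0.52) and the bundler Pls1 (fimbrin, 2.12 ± 0.35), and both that were lower were the membrane protein Prom1 (-2.62 ± 0.49) and the motor Myo1c (-1.59 ± 0.41). Between tip and mid-villus 6 were higher and 1 lower, where 6.83% of all genes were higher and 5.27% lower. Myo1c (2.27 ± 0.48), Myo1e (1.75 ± 0.28) and the cytolinker Plec (1.51 ± 0.35) were higher, and Scin, which severs actin, was lower (-1.77 ± 0.55). Of these 4, Myo1e alone was called without each mouse in turn. The calls of Plec and Scin were lost without mouse 1, 2 or 3 (edgeR adjusted p of 0.0561 to 0.126), and Myo1c, with 0 to 16 UMIs in each of these sums, was not called without mouse 1 (0.0676) and not tested without mouse 3. Its change between mid-villus and crypt was not tested without mouse 3 either. Between tip and crypt 18 were higher and 2 lower, with Stk10 (4.67 ± 0.54), Tmigd1 (4.31 ± 0.79) and Plec (3.27 ± 0.37) at the top and Prom1 (-1.91 ± 0.55) and Myo1d (-0.92 ± 0.26) at the bottom, all in edgeR's test. Over all genes 23.5% were higher and 29.9% lower there. Of the protocadherin partners, Ush1c (0.76 ± 0.26) and Anks4b (1.32 ± 0.43) were higher between tip and crypt and Calml4 was not called (0.44 ± 0.28), and none of them was called between tip and mid-villus.

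Enterocyte-like single cells gave the same axis with 1 cell type to a well, from a set of mice whose numbers the labels do not tie to those of the clumps. They were placed by the same landmarks, as 357 crypt, 802 mid-villus and 1242 tip cells, and mouse 1 was left out of the crypt, where it had 3 cells. Between tip and crypt all 10 genes were called higher in edgeR's test over 4303 genes, of which 29.2% were higher and 30% lower, and for 8 of the 10 genes no crypt mouse reached a tip mouse, against 10.8% of all genes. Between mid-villus and crypt 9 were called higher, against 11.5% higher and 18.4% lower of all genes, and 8 were without overlap, against 9.3%. Myo1a was the gene not called there (0.48 ± 0.27, adjusted p = 0.189), and it was called with mouse as a block (0.54 ± 0.19, adjusted p = 0.0165), where 15.9% of all genes were higher.

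Espn had the largest change between tip and crypt, as in clumps. It was at 51.9, 34.9 and 55.3 CPM in crypt enterocytes of mice 2 to 4, at 326, 226, 147 and 251 CPM in the mid-villus of mice 1 to 4, and at 309.6, 299, 208 and 443 CPM at the tip. Every villus mouse lay above the crypt range, and the changes against the crypt were 2.63 ± 0.39 and 3.67 ± 0.39 (edgeR adjusted p = 3.88e-05 and 5.31e-07). Pdzk1 had 51.9, 9.69 and 41.5 CPM in crypt enterocytes, from 10, 5 and 12 UMIs, then 118, 163, 109 and 246 CPM in mid-villus ones and 82.5, 123, 70.0 and 111 CPM in tip ones. As in clumps, its tip level was below the mid-villus of the same mouse in 4 of 4 mice, with a change of -0.05 ± 0.30 that was not called (edgeR adjusted p = 0.91) and that changed sign without mouse 4 (0.13). In 4 of 4 mice the tip also had less Vil1 and Myo1a by CPM. Of the other changes between tip and crypt, Cdhr2 had 2.68 ± 0.31, Pdzk1 2.58 ± 0.41, Eps8 2.27 ± 0.29, Cdhr5 1.90 ± 0.31, Slc9a3r1 1.88 ± 0.26, Ezr 1.82 ± 0.25, Myo7b 1.51 ± 0.28, Vil1 1.27 ± 0.26 and Myo1a 0.72 ± 0.27, with the largest edgeR adjusted p, 0.027, for Myo1a. Its call was lost without mouse 3 (0.48, adjusted p = 0.162) or mouse 4 (0.75, adjusted p = 0.1), and its sign turned under library totals alone (-0.16), where its mean CPM was 280.2 at the tip and 315 in the crypt. Between mid-villus and crypt Pdzk1 had 2.63 ± 0.41, Cdhr2 1.74 ± 0.30, Slc9a3r1 1.38 ± 0.25, Cdhr5 1.33 ± 0.31, Ezr 1.17 ± 0.25, Vil1 1.13 ± 0.26, Myo7b 1.01 ± 0.28 and Eps8 0.91 ± 0.29, where the largest edgeR adjusted p among the 9 called was 0.0239, for Eps8. There the call of Eps8 was lost without mouse 3 or 4 (adjusted p = 0.0743 and 0.0881) and that of Myo7b without mouse 4 (0.0613).

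Between tip and mid-villus enterocytes 4 genes were called higher, where 16.6% of all genes were higher and 16.5% lower: Eps8 (1.36 ± 0.24, edgeR adjusted p = 0.000746), Espn (1.04 ± 0.30, 0.0135), Cdhr2 (0.94 ± 0.26, 0.0101) and Ezr (0.66 ± 0.22, 0.0281). With mouse as a block Slc9a3r1 (0.46 ± 0.15, adjusted p = 0.0108), Myo7b (0.49 ± 0.16, 0.0118) and Cdhr5 (0.56 ± 0.15, 0.00188) were called as well, where 21.2% of all genes were higher. Without the block these 3 had edgeR adjusted p of 0.0891, 0.111 and 0.107, and Vil1 (0.14 ± 0.23) and Myo1a (0.23 ± 0.24) were not called in either fit. Eps8 was at 109, 68.4, 84.2 and 114 CPM in the mid-villus and at 135, 179.7, 126 and 165 CPM at the tip, higher in 4 of 4 mice. The CPM of Cdhr2 was higher in 4 of 4 mice, that of Espn in 3 and that of Ezr in 2. These calls rest on the scaling. Library totals alone moved the median of all genes by -0.67 and called none of the 10, with 5 of them changing sign (Vil1, Slc9a3r1, Myo1a, Myo7b and Cdhr5). The share of all calls that were higher fell with it, from 50.2% to 10.1% between tip and mid-villus. It fell from 49.4% to 18.5% between tip and crypt and from 38.4% to 22.6% between mid-villus and crypt. Under library totals 7 of the 10 genes were called between tip and crypt and 6 between mid-villus and crypt. These percentages are shares of the calls, and the share of all genes called under library totals is not given. The calls between tip and mid-villus rest on single mice too: Eps8 was the only member called without mouse 2, and without mouse 4 the adjusted p was 0.115 for Espn and 0.142 for Ezr. Of the 41 further genes, 26 were tested, with 15 higher and 11 not called between tip and crypt, 6 higher and 20 not called between mid-villus and crypt, and 9 higher and 1 lower between tip and mid-villus. Plec (3.23 ± 0.38) and Myo1e (3.00 ± 0.61) led between tip and crypt, and Pls1 (1.70 ± 0.26) and Plec (1.53 ± 0.37) between mid-villus and crypt, beside Stk10, which had no UMI in crypt sums against a mean of 33.0 CPM at the tip and 24.2 CPM in the mid-villus. Between tip and mid-villus Myo1e (1.90 ± 0.47), Plec (1.70 ± 0.30) and the membrane-shaping Baiap2l1 (1.46 ± 0.40) were higher and Scin (-1.90 ± 0.49) lower in edgeR's test. Without mouse 4 Myo1e (adjusted p = 0.0695) and Baiap2l1 (0.0522) were not called, and without mouse 2 Baiap2l1 (0.072) and Scin (0.0533). Of the protocadherin partners, Anks4b was higher between tip and crypt (1.12 ± 0.30, edgeR adjusted p = 0.00394), and Ush1c and Calml4 were called in none of these 3 comparisons.

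**Figure D2:**
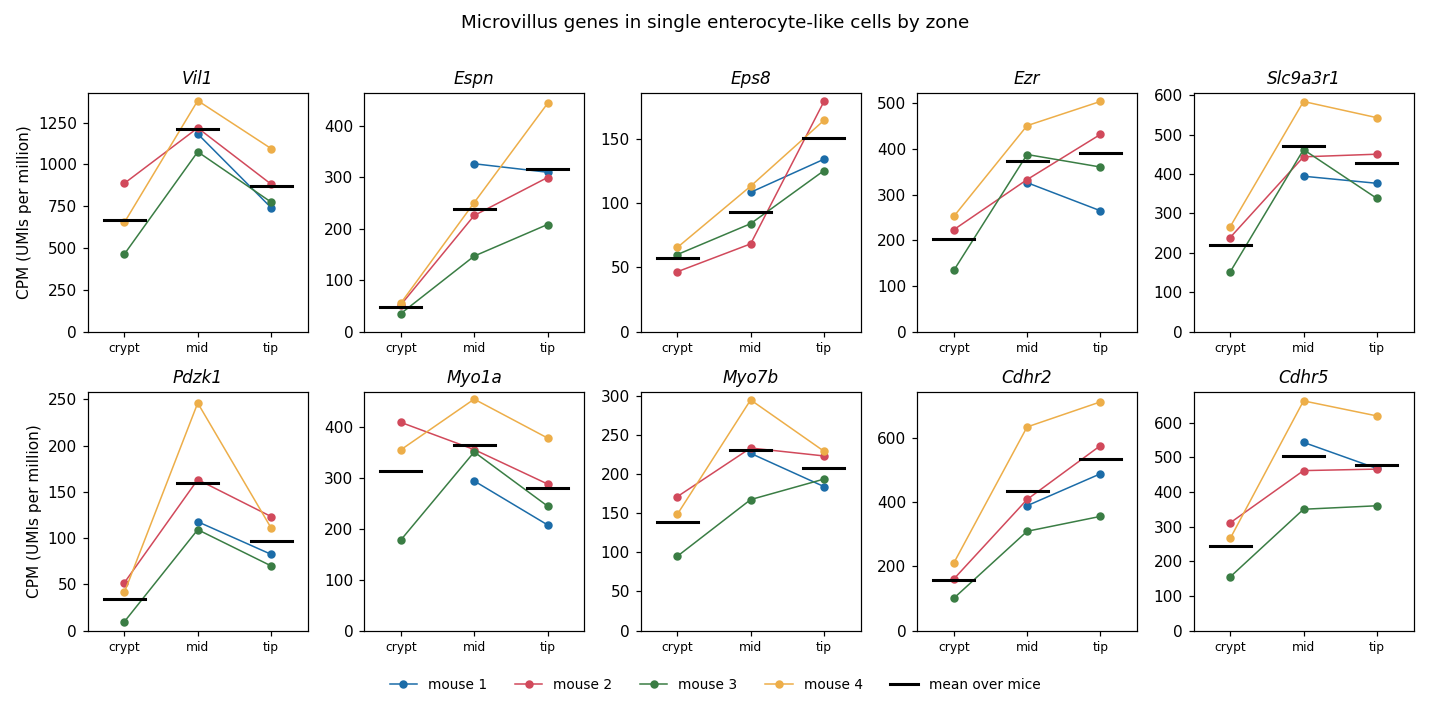
CPM of the 10 genes (vertical axes, each from 0) in enterocyte-like single cells by zone; each line is 1 of 4 mice, mouse 1 has no crypt sum, and black bars are means. Espn and Cdhr2 climb from crypt to villus, and Pdzk1 is lower at the tip than in the mid-villus in 4 of 4 mice.

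Tuft-like cells, the chemosensory cells of the epithelium, were compared with enterocyte-like cells because both bear microvilli. Relative to the bulk of genes, 4 of the 10 were lower in tuft-like cells and none was higher in edgeR's test over 3991 genes, of which 11.4% were higher and 13.9% lower. The 4 were Pdzk1, Eps8, Ezr and Slc9a3r1, and DESeq2 also called 4 lower and 0 higher, while 7 genes had an unadjusted p under 0.05 in edgeR's test, all of them lower. The same 4 genes were those for which every tuft mouse lay below every enterocyte mouse, against 9.4% of all genes. Cdhr5, Espn and Cdhr2 stood out in the other direction in CPM, with every tuft mouse above every enterocyte mouse, but 24.5% of all genes did so and none of the 3 was called. The sums came from 19, 158 and 6 tuft-like cells of mice 1 to 3, and mouse 4, with 4 such cells, was left out. Tuft-like sums held 10912 to 15462 CPM of tuft markers against 27.9 to 48.7 in enterocyte-like sums, and 4574 to 6218 CPM of enterocyte markers against 25022 to 37802, and the part of enterocyte RNA in the tuft-like levels was not tested.

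The linker Ezr and both PDZ scaffolds were called lower in tuft-like cells. Pdzk1 had no UMI in 411461 UMIs of tuft-like cells, which allows up to 7.29 CPM at 3 counts over the group, and 799 in 7595174 UMIs of enterocyte-like cells, where the 4 mice held 84.5, 129, 71.3 and 149.7 CPM. It was thus at least 14.4-fold lower in tuft-like cells (edgeR adjusted p = 8.82e-07), counting error only. Mouse 2 held 341688 of these tuft UMIs, and without it the bound was at least 2.32-fold, with no UMI in 69773. Ezr was at 112, 105 and 0 CPM in tuft-like cells and at 267, 354, 304 and 439 CPM in enterocyte-like cells, lower by -3.05 ± 0.70 on the log2 scale (edgeR adjusted p = 0.000718). The 0 of mouse 3 came from 16221 UMIs in all. Slc9a3r1 was at 224, 205 and 185 CPM against 376, 413, 339 and 507 (-2.24 ± 0.58, edgeR adjusted p = 0.00261). Under library totals alone Slc9a3r1 kept its direction but not its call (-0.98, adjusted p = 0.164), and its tuft level lay within the 176 to 233 CPM of immune-like cells, which are not epithelial. Ezr in tuft-like cells was likewise within or below the immune-like range of 102 to 204 CPM. The immune-like level cannot be taken as background for these genes. Among the UMIs of the 10 genes, Slc9a3r1 took a mean of 22.7% and Ezr 14.3% in immune-like cells. In enterocyte-like cells they took 11.6% and 9.69%. Pdzk1, Ezr and Eps8 were lower in tuft-like cells under each of the 3 scalings.

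The actin bundlers split. Eps8 was at 18.7, 20.5 and 61.6 CPM in tuft-like cells, from 1, 7 and 1 UMIs, against 131, 107, 85.8 and 128 CPM in enterocyte-like cells (-3.49 ± 0.76, edgeR adjusted p = 0.000374). Espn was at 859, 904 and 555 CPM against 308, 229, 129 and 305. Its lowest tuft mouse exceeded its highest enterocyte mouse, yet the fitted change was 0.34 ± 0.64 (edgeR adjusted p = 0.782), with a 95% interval of -0.91 to 1.60, where the median gene stood 0.94 higher in tuft-like cells under library totals. It turned to -0.01 without mouse 2 and -0.12 without mouse 3. Vil1 was at 1008, 878 and 616 CPM against 776, 1026, 814 and 1118, groups that overlapped (-1.39 ± 0.60, adjusted p = 0.0906).

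Both protocadherins were abundant in tuft-like cells. Cdhr5 was at 2259, 1932 and 925 CPM, against 471, 439, 289 and 576 in enterocyte-like cells. The lowest tuft mouse, with 15 UMIs, was still above the highest enterocyte mouse. Fitted relative to the bulk of genes the change was 0.68 ± 0.60 (edgeR adjusted p = 0.497). Cdhr2 was at 1064, 1065 and 678 CPM against 472, 435, 257 and 600.0, and its change was -0.20 ± 0.64 (edgeR adjusted p = 0.884), which turned to 1.10 under library totals. The 4 tuft-like cells of mouse 4 held 2095 CPM of Cdhr5, 1366 of Cdhr2 and 1458 of Espn, from 23, 15 and 16 UMIs, in the range of the other tuft mice or above it. Vil1 (546.6 CPM), Slc9a3r1 (182.2), Myo1a (91.1), Myo7b (91.1) and Eps8 (0) lay below that range there, and Ezr (91.1) and Pdzk1 (0) within it, each from 0 to 6 UMIs. The protocadherin partners Ush1c (-0.27 ± 0.61), Anks4b (-1.33 ± 0.52) and Calml4 (0.24 ± 0.53) were not called. The motors Myo1a (261, 293 and 185 CPM in tuft-like cells) and Myo7b (168, 193 and 308 CPM) overlapped their enterocyte ranges of 215 to 399 and 154 to 238 CPM and were not called (-1.43 ± 0.62 and -1.24 ± 0.56, edgeR adjusted p = 0.0925 and 0.108).

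**Figure D3:**
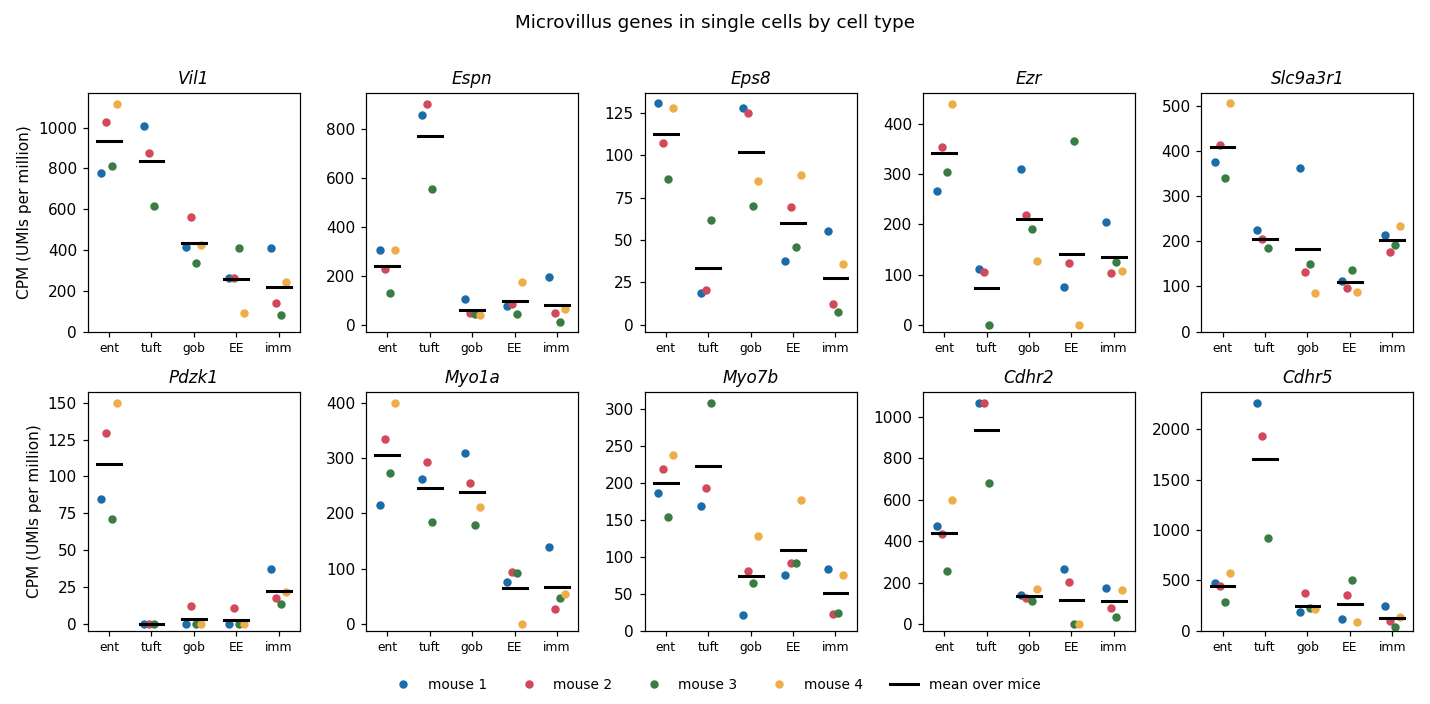
CPM of the 10 genes (vertical axes) in sums of single cells by type, with ent for enterocyte-like, gob for goblet-like, EE for enteroendocrine-like and imm for immune-like; each point is 1 mouse and black bars are means. Tuft-like points lie above all enterocyte-like points for Espn, Cdhr2 and Cdhr5, and below all of them for Eps8, Ezr, Slc9a3r1 and Pdzk1.

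How the levels were scaled decided what was called higher. TMM factors, which set the bulk of genes to no change, gave 44.9% of calls as higher in tuft-like cells, and library totals alone gave 78.2% and moved the median of all genes by 1.06. Under library totals Cdhr5 (1.958, edgeR adjusted p = 0.0117) and Espn (1.69, 0.037) were called higher, Pdzk1, Eps8 (-2.26, 0.0148) and Ezr (-1.93, 0.0319) stayed lower, and Myo7b changed sign (0.07), where 24.8% of all genes were higher and 6.92% lower under library totals. The size factors of DESeq2 moved the median by -0.08 and gave the 4 calls of TMM. Mitochondrial transcripts took 30.3 to 33.0% of UMIs in enterocyte-like cells and 16.3 to 20.2% in tuft-like cells, and with those genes left out 4 members were called. With mouse as a block Vil1 (-1.55 ± 0.51, adjusted p = 0.0102) and Myo1a (-1.53 ± 0.51, adjusted p = 0.0116) were called lower as well, 6 in all, where 17.0% of all genes were lower with the block.

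**Figure D4:**
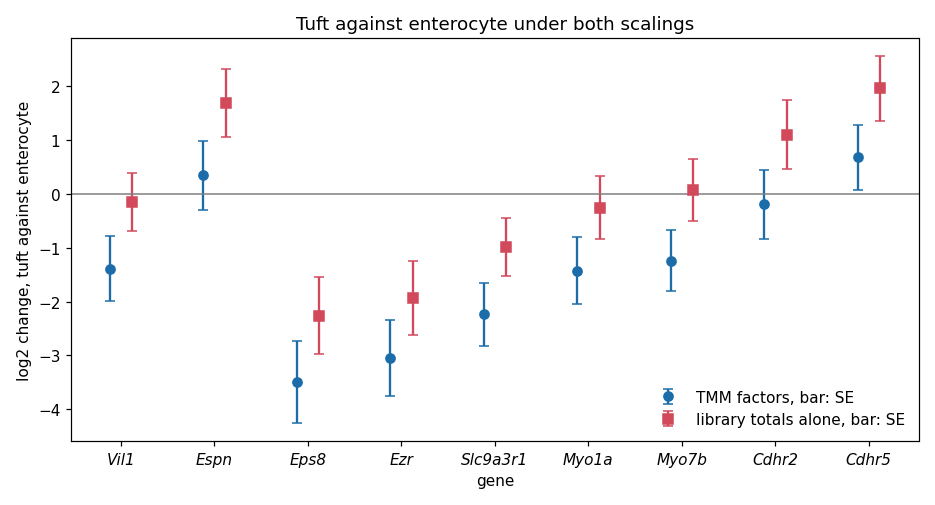
Log2 change between tuft-like and enterocyte-like sums (vertical axis) for 9 of the 10 genes under TMM factors (circles) and library totals alone (squares), with bars of 1 SE; Pdzk1, at 0 in tuft-like cells, is not drawn. Each gene lies higher under library totals, and Cdhr2 and Myo7b pass from below 0 to above it.

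Within the set of 10 genes the makeup of tuft-like cells differed from that of enterocyte-like cells whatever the scaling. Cdhr5 took 32.9 ± 5.92% of the UMIs of the 10 genes in tuft-like cells (SD, n = 3) and 12.4 ± 1.56% in enterocyte-like cells (n = 4), with no overlap. Espn took 15.4 ± 0.94% against 6.80 ± 1.93% and Cdhr2 18.7 ± 0.79% against 12.3 ± 2.15%. In place of these, Vil1 took 16.7 ± 0.94% against 26.6 ± 2.83%, Ezr 1.25 ± 1.08% against 9.69 ± 1.26%, Slc9a3r1 4.22 ± 0.90% against 11.6 ± 0.58% and Myo1a 4.96 ± 0.50% against 8.65 ± 1.49%. Tuft mouse 3, with 57 UMIs of the 10 genes, set some of these means. Myo7b took 2.81, 3.45 and 8.77% in tuft mice 1 to 3, with the last from 5 UMIs, against 5.34 to 5.94% in enterocyte-like cells, and its mean of 5.01% became 3.13% without mouse 3. Ezr took 1.88, 1.88 and 0% and Eps8 0.31, 0.37 and 1.75%, the last from 1 UMI, so that without mouse 3 their means were 1.88% and 0.34%. These shares are a description with no test, and the share of one gene lowers that of the others by construction.

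**Figure D5:**
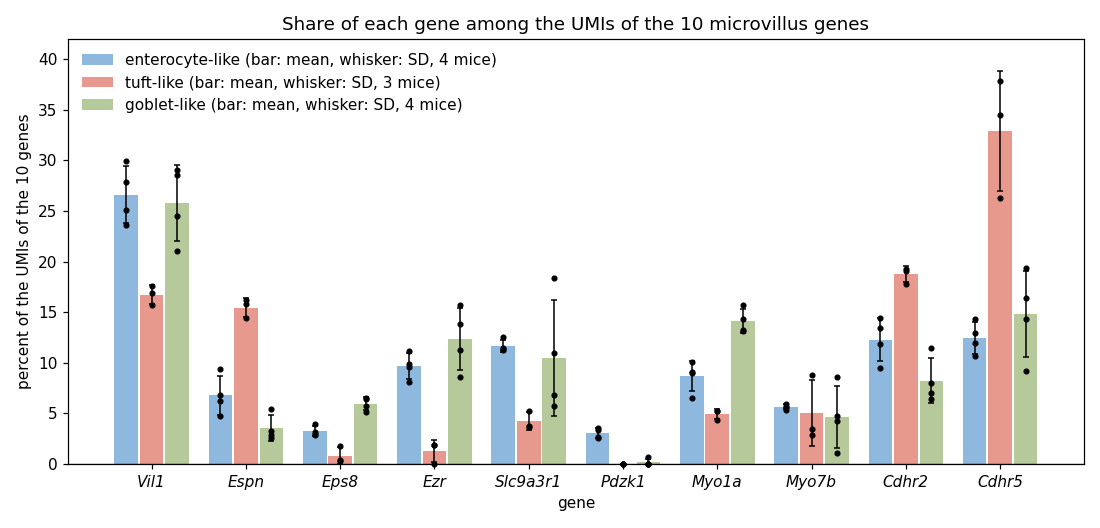
Share of each gene among the UMIs of the 10 genes (vertical axis, percent) in enterocyte-like (4 mice), tuft-like (3 mice) and goblet-like (4 mice) cells; bars are means, whiskers 1 SD and points single mice. Cdhr5 holds 32.9% in tuft-like cells against 12.4% in enterocyte-like cells, while in tuft-like cells Ezr holds 1.25%, Eps8 0.81% and Pdzk1 0%, means that without mouse 3 (57 UMIs) are 1.88% for Ezr and 0.34% for Eps8.

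Mouse 2 carried most tuft-like cells, and without it 1 gene, Ezr, was called (-3.44, edgeR adjusted p = 0.0349), Pdzk1 was not tested, and Eps8 (adjusted p = 0.0529) and Slc9a3r1 (0.0541) missed the threshold. The share of all genes called without mouse 2 is not given, so a general loss of calls cannot be told from a result about these genes. Without mouse 1, Vil1 and Myo1a were called as well. Of the 158 tuft-like cells numbered as mouse 2, 34 came from the plates labelled 4 months, and with those plates left out the 4 genes were called (Eps8 -4.05, Ezr -3.20, Slc9a3r1 -2.40 and Pdzk1, with edgeR adjusted p of 0.000451, 0.000568, 0.00261 and 3.59e-06). The block was not run without those plates. Sort gates also differed, since 103 of the tuft-like cells of mouse 2 came from plates whose description names CD24, against 8 of its 529 enterocyte-like cells. With 8 enterocyte-like cells of 1 mouse, those plates could not give a comparison of the types within the gate, and the part of the gate was not tested.

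Of the 41 further genes 30 were tested, with 4 higher and 8 lower in tuft-like cells, where 11.4% of all genes were higher and 13.9% lower. The count of higher ones was near the share over all genes. Avil (advillin, a villin relative and tuft marker) was highest by far, with 1153 ± 259 CPM in tuft-like cells (SD, n = 3) against 0.94 ± 0.50 in enterocyte-like cells (n = 4) and a change of 8.78 ± 0.82 (edgeR adjusted p = 6.1e-11). Prom1 was higher by 2.76 ± 0.53 (edgeR adjusted p = 7.69e-05). Rdx (radixin, the ezrin relative) was called higher too (4.64 ± 1.15, edgeR adjusted p = 0.00186), from 4 UMIs in mouse 1 (74.7 CPM), 1 in mouse 2 (2.93 CPM) and 0 in mouse 3, and without mouse 1 it was not called (2.11 ± 1.81, 0.469). Its mean in immune-like cells was 71.4 CPM. The actin nucleator Cobl was lower by -5.36 ± 1.01 (5.09e-05), with 2 UMIs that both lay in mouse 2, and Baiap2l2, which shapes the membrane of the microvillus, and Stk10 were at 0 in all 3 tuft mice against 45.0 and 24.3 CPM. Without mouse 2, Rdx, Prom1, Baiap2l2 and Stk10 were not tested, nor was Stk10 without mouse 3.

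Goblet-like cells, which secrete mucus and bear sparse microvilli, were lower than enterocyte-like cells for 7 of the 10 genes in edgeR's test, where 7.14% of all genes were higher and 13.3% lower. Every goblet mouse lay below every enterocyte mouse for 5 of the 10 genes, against 8.64% of all genes. Pdzk1 had 2 UMIs in 478125, both from mouse 2, against 105 CPM over the enterocyte-like cells (edgeR adjusted p = 1.92e-06). Espn was at 107, 49.9, 44.9 and 42.5 CPM (-2.80 ± 0.69, adjusted p = 0.00212), Cdhr2 at 139, 125, 109.8 and 169.8 CPM (-2.59 ± 0.65, 0.00249) and Myo7b at 21.3, 81.0, 64.9 and 127 CPM (-2.40 ± 0.54, 0.000789). All 4 mice were below the enterocyte range for each of these, and Espn and Cdhr2 were within the immune-like ranges of 11.9 to 194 and 34.2 to 176 CPM. Without mouse 1, whose immune-like sum stood apart, those ranges ended at 64.5 and 165 CPM, below 1 goblet mouse for each gene.

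Vil1 was lower in goblet-like cells as well, at 416, 561, 334 and 425 CPM (-1.87 ± 0.55, edgeR adjusted p = 0.0114). Slc9a3r1 (-1.83 ± 0.50, 0.00619) and Cdhr5 (-1.62 ± 0.59, 0.044) were called with overlapping groups. Eps8 was at 128, 125, 69.9 and 84.9 CPM, within the enterocyte range of 85.8 to 131 in 2 of 4 mice, and was not called (-0.93 ± 0.52, adjusted p = 0.23). Ezr (-1.34 ± 0.56, adjusted p = 0.0879) and Myo1a (-1.05 ± 0.55, 0.199) were not called without the block and were called with it (-1.39 ± 0.44, 0.00849, and -1.10 ± 0.43, 0.0437), where 16.9% of all genes were lower. Under library totals 3 genes were called, namely Pdzk1, Espn and Myo7b, against 6.44% of all genes lower, with the same direction for all 10 under each scaling and a shift of 0.64 in the median of all genes, which moved the share of all calls that were higher from 35.0% to 63.4%. The call of Cdhr5 was also lost under the size factors of DESeq2 (adjusted p = 0.0784) and with mitochondrial genes left out (0.0887). Without mouse 2 Pdzk1 was not tested and the calls of Slc9a3r1 and Cdhr5 were lost (adjusted p = 0.0536 and 0.0519), without mouse 4 those of Vil1, Slc9a3r1 and Cdhr5 (0.088, 0.0844 and 0.198), and without mouse 1 Ezr and Myo1a were called. Of 30 further genes 3 were higher, namely Prom1 (2.79 ± 0.51), the actin-severing Gsn (2.48 ± 0.49) and Myo1c (2.43 ± 0.60), and 8 were lower, among them Stk10 (-4.02 ± 1.03), Cobl (-3.87 ± 0.76) and Anks4b (-2.67 ± 0.53), while Ush1c (-0.94 ± 0.58) and Calml4 (-1.01 ± 0.51) were not called. Over all genes 7.14% were higher and 13.3% lower, and the count of higher further genes was near that share. Stk10 had 1 UMI and Cobl 5 in goblet-like cells, and without mouse 2 Prom1, Gsn, Myo1c and Stk10 were not tested. Myo1c and Stk10 were not tested without mouse 3 either.

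Enteroendocrine-like cells, the hormone-secreting cells, were lower for all 10 genes in edgeR's test, where 13.0% of all genes were higher and 19% lower. The changes ran from -2.10 for Cdhr5 (± 0.62, adjusted p = 0.00717) to -3.33 for Slc9a3r1 beside Pdzk1, whose fitted change of -4.65 (± 0.75, 6.46e-06) rested on 5 UMIs of mouse 2 (11.2 CPM) and 0 in the other 3 mice, and which was not tested without mouse 2. Every mouse lay below the enterocyte range for 4 genes, Vil1, Slc9a3r1, Pdzk1 and Myo1a, against 7.97% of all genes. Vil1 was at 264, 261, 411 and 88.5 CPM (-3.22 ± 0.61, 5.33e-05) and Myo1a at 75.4, 93.8, 91.4 and 0 CPM (-3.19 ± 0.66, 0.000184). For Slc9a3r1 the change was -3.33 ± 0.58, and those of Espn, Cdhr2, Ezr, Myo7b and Eps8 were -2.93 ± 0.73, -2.92 ± 0.68, -2.63 ± 0.63, -2.41 ± 0.57 and -2.22 ± 0.61, with edgeR adjusted p of 1.65e-05, 0.0017, 0.0008, 0.00112, 0.00108 and 0.00431. Mouse 2 held 447871 of the UMIs and mouse 4 only 11299, so that 1 UMI of mouse 4 was worth 88.5 CPM. Under library totals these same 4 genes were the ones called, against 6.56% of all genes lower, with the same direction for all 10 and a shift of 1.18 in the median of all genes, and the share of all calls that were higher moved from 40.7% to 82.8%. Plates naming CD24 held 188 of the 219 cells of mouse 2 but 8 of its enterocyte-like cells, so the part of the gate was not tested here either. Slc9a3r1 (88.5 to 137 CPM) lay below the immune-like range of 176 to 233 CPM, and Espn (45.7 to 177) within that of 11.9 to 194, which without mouse 1 ended at 64.5. For Slc9a3r1 the immune-like range cannot be taken as background. Of 30 further genes 2 were higher, Avil (3.33 ± 0.89) and the ezrin relative Msn (2.49 ± 0.98), from 16 and 6 UMIs that all lay in mouse 2 and with neither called without it (edgeR adjusted p = 0.822 and 0.838), nor Msn without mouse 1 (0.0897) or mouse 4 (0.14), while the mean of tuft-like sums was 1153 CPM for Avil and that of immune-like sums 144.7 CPM for Msn. Another 16 were lower, with Stk10 at 0, Cobl (-4.51 ± 0.86, from 5 UMIs of mouse 2) and Pls1 (-4.25 ± 0.65) leading, and of the protocadherin partners Anks4b was lower (-2.59 ± 0.55) and Ush1c (-1.10 ± 0.64) and Calml4 (-1.24 ± 0.53) were not called. Stk10 was not tested without mouse 2 or without mouse 3.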

How the data were processed

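The authors sequenced 3′-end libraries in 384-well plates and deposited tables of UMI counts per gene and well, with no normalization. Reads were converted with bcl2fastq 2.15.0.4 and counted against GRCm38, per the labels and methods. Clumps over 200 genes and 500 UMIs with under 30% mitochondrial UMIs were kept, and single cells had to hold between 200 and 7000 UMIs and between 150 and 1500 genes, with mitochondrial UMIs up to 40%. The 2% of clumps with the lowest landmark share were left out. Cells were clustered (scanpy 1.11.5, igraph 0.11.9, 2000 variable genes, 25 components, 20 neighbours, resolution 0.1) and named from listed markers. No doublet caller was run. UMIs were summed per mouse and group, leaving out sums of under 5 wells, and CPM used the sum's total. Sums held 11299 to 19017955 UMIs, and depth limits the smallest.

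Groups were compared with edgeR 4.0.16 (quasi-likelihood, TMM, default expression filter, Benjamini-Hochberg, threshold 0.05, R 4.3.3), with mouse as a block, DESeq2 1.42.0, other scalings, filters, gates and each mouse left out as alternatives. All zones, or all named cell types, were in 1 fit. The immune-like sums, with that of mouse 1, and the plasma-cell-like sums thus entered the filter, the TMM factors and the spread behind each comparison of cell types. Same-numbered sums of a table carry the same mouse number in the labels, though plates of 2 ages share number 2 of the single cells, which the labels leave as possibly more than 1 animal. Their deviations correlated at 0.33 to 0.735 in 15 pairs of clump sums, 0.297 to 0.674 in 10 pairs of enterocyte zones and -0.0742 to 0.641 in 50 pairs of cell types. The fit was also run on simulated data, whose outcome is not given here and is not used for any statement above. The 10 genes, the further 41 and the marker lists were chosen with earlier results of these data known. All 10 genes were named in each comparison, with Ush1c, Anks4b, Calml4, up to 3 largest called changes of the further genes in each direction, and the 5 other genes most like the members over clump sums, of which 1 is not reported here. Intervals cover counting error only where they come from counts.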

Additional observations from a re-analysis of the deposited data

Results flagged for a closer look

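In 90 sets of 4 or 5 mice (1 gene in 1 group), the highest or lowest mouse lay far from the others in 4, where chance gives about 4.5. Espn in goblet-like cells was at 107 CPM in mouse 1, from 10 UMIs, against 42.5 to 49.9 in the other mice. Pdzk1 was at 12.5 CPM in goblet-like cells of mouse 2, from 2 UMIs, and at 11.2 CPM in enteroendocrine-like cells of mouse 2, from 5 UMIs, with 0 in each other mouse. Myo7b was at 177 CPM in enteroendocrine-like cells of mouse 4, from 2 UMIs, against 75.4 to 91.5 in the others.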

How the results depend on the processing

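Of 1440 values of single genes under alternatives, 1306 kept direction and side of the threshold, 74 lost a call, 23 gained one and 37 changed sign, 5 of these called as reported. The cause was not tested. Genes called in clumps numbered 5 between mid-villus and crypt among pairs alone (10 as reported). Between tip and mid-villus (1 as reported) the count was 6 with mouse as a replicate block and 0 under library totals, no filter, clumps low in secretory markers, larger clumps (chosen after seeing the data), mitochondrial genes left out, over 1000 UMIs and pairs. Goblet counts (7) were 3 and enteroendocrine counts (10) 4 under library totals. Single enterocytes between tip and mid-villus (4) gave 0 under library totals and 7 with the replicate block. Leaving out 1 mouse gave 9 to 10 between mid-villus and crypt clumps, 0 to 1 between tip and mid-villus, 10 between tip and crypt, 1 to 6 for tuft, 4 to 9 for goblet, 9 to 10 for enteroendocrine, and 1 to 4, 9 to 10 and 7 to 9 for single enterocytes (tip to mid-villus, tip to crypt, mid-villus to crypt). No share of all genes called is set beside the counts of this paragraph. A general loss or gain of calls and a result about these genes thus cannot be told apart. The goblet comparison in CD24 plates could not be run, since they held 1 goblet-like cell. There the tuft (4 as reported) and enteroendocrine fits gave 0, but with 8 enterocyte-like cells, 1 such sum and 6 genes tested they say nothing of the gate.

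Sign changes were as follows. Vil1 between tip and mid-villus clumps (0.01 as reported) gave -0.0689, -0.0736, -0.274, -0.296, -0.0228, -0.131, -0.0127, -0.0664, -0.00568, -0.00277, -0.124, -0.0986, -0.152, -0.0705, -0.129, -0.0938 and -0.066 under 17 alternatives, and 0.053 without mouse 4. In tuft-like cells Myo7b gave 0.0744 and Cdhr2 1.1 under library totals, Cdhr2 0.188 against mid-villus enterocytes, and Espn -0.014 without mouse 2, -0.116 without mouse 3 (up to 0.404, without mouse 1) and -0.00757 with types set by marker sums. In single enterocytes between tip and mid-villus, library totals gave Vil1 -0.476, Slc9a3r1 -0.144, Myo1a -0.384, Myo7b -0.151 and Cdhr5 -0.0735, and Pdzk1 ran from -0.141 without mouse 1 to 0.13 without mouse 4. Between tip and crypt Myo1a was -0.155 under library totals. The smallest sums (tuft mouse 3, enteroendocrine mouse 4) limit what low genes can show. The void fits in CD24 plates gave Vil1 2.51, Slc9a3r1 8.92, Myo1a 1.49 and Cdhr2 2.02 for tuft and Vil1 0.626, Slc9a3r1 7.44 and Cdhr5 2.47 for enteroendocrine.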

Other observations

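Clumps of mouse 6, sorted above 2n, entered only the alternatives with mouse 6 added and none of the values of the report, with 120 crypt, 57 mid-villus and 71 tip clumps. The CPM of all 10 genes was higher in its mid-villus and tip than in its crypt, and 5 of 10 were higher at the tip than in the mid-villus. Pdzk1 was at 22.9, 297.5 and 48.7 CPM and Espn at 68.7, 301 and 473 CPM in crypt, mid-villus and tip. These are values of 1 mouse with no test.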
